A study of Mus musculus with 12 samples.

Results

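The genes described here are 39 mouse genes of fatty acid beta-oxidation, taken from a whole-kidney RNA sequencing table as the lines whose Ensembl identifier maps to a fixed list of symbols. The list holds 18 enzymes and subunits of mitochondria, 12 proteins of peroxisomes, 4 enzymes known from both compartments (Eci2, Amacr, Crat and Acad11) and 5 proteins that take up or activate fatty acids or import carnitine. All 39 were found among the 28991 genes of the table, and all 39 passed the filter on low counts that left 20370 genes for testing. The animals were male BALB/c mice, an inbred laboratory strain, aged 8 weeks, in 4 groups of 3. The combination group received dichloroacetate at 250 mg/kg a day for 5 days and then a single dose of cisplatin at 20 mg/kg together with dichloroacetate. The cisplatin group received saline for 5 days and then the same single dose of cisplatin. The dichloroacetate group received dichloroacetate alone at 250 mg/kg a day for 6 days, and the saline group received daily saline for 6 days. Kidneys of the groups given cisplatin were taken 24 h after it. Cisplatin is a platinum drug against tumours that can injure the kidney tubule, dichloroacetate inhibits the kinases that switch off pyruvate dehydrogenase, and the study asked whether dichloroacetate protects the kidney.

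Beta-oxidation shortens an activated fatty acid, an acyl-CoA, by repeated rounds of oxidation, hydration, a further oxidation and thiolytic cleavage. Mitochondria take long chains in through the carnitine shuttle and pass the electrons to the respiratory chain, whereas peroxisomes begin the breakdown of very long and branched chains with oxidases that make hydrogen peroxide. Fatty acids are the main fuel of the proximal tubule, which makes up most of the kidney cortex and is rich in both organelles.

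Library totals ran from 29505929 to 62237514 counts, and the 6 mice given cisplatin had the lower ones. Levels are CPM, counts scaled to a common library size, after TMM scaling, which corrects for a few genes taking a large share of a library, and a fold change is called when its Benjamini-Hochberg adjusted p in edgeR's quasi-likelihood test is below 0.05. The scaling factors were 1.02 to 1.15 in mice given cisplatin and 0.894 to 0.964 in mice without it. Positions are those of the GENCODE M21 annotation in the files' build, mm10. The kidney label was checked against markers of the proximal tubule, which were all detected and summed to 29731 to 33809 CPM in saline mice, whereas skeletal muscle markers summed to at most 0.245 CPM in any library.

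In saline kidneys, levels per kilobase of exon differed widely among the 39 genes. Slc27a2, a fatty acid transporter of the plasma membrane and peroxisome that is also an acyl-CoA synthetase, stood highest at 1019 ± 74.4 CPM per kb (SD, n = 3). Next came Phyh, the enzyme that starts alpha-oxidation of phytanic acid, at 287 ± 27.8 CPM per kb, the electron transfer subunit Etfb at 279 ± 33.0, the sterol carrier protein and thiolase Scp2 at 235 ± 14.3 and the peroxisomal bifunctional enzyme Ehhadh at 208 ± 36.0 CPM per kb. Phyh and Etfb did not differ beyond their spread, and neither did Scp2 and Ehhadh. The long-chain acyl-CoA synthetase Acsl3 was lowest, at 6.39 ± 0.31 CPM per kb. In cisplatin kidneys Etfb ranked first by its mean at 232 ± 17.1 CPM per kb and Slc27a2 stood at 202 ± 39.1 CPM per kb. Etfb was the higher within each of these mice, but their ranges overlapped, at 213 to 246 and 161 to 239 CPM per kb. Summed over the 39 genes, reads made up 1.04% to 1.11% of the scaled library in combination mice, 0.721% to 0.853% in cisplatin mice, 1.41% to 1.54% in dichloroacetate mice and 1.32% to 1.49% in saline mice. The cisplatin mice lay below all others on this sum, and the combination mice lay between them and the mice without cisplatin. Slc27a2 alone weighed heavily in the sum, with means of 1678 of 10773 CPM in combination mice and 758 of 7777 CPM in cisplatin mice. Its means were 3923 of 14640 CPM in dichloroacetate mice and 3825 of 14219 CPM in saline mice.

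**Figure D1:**
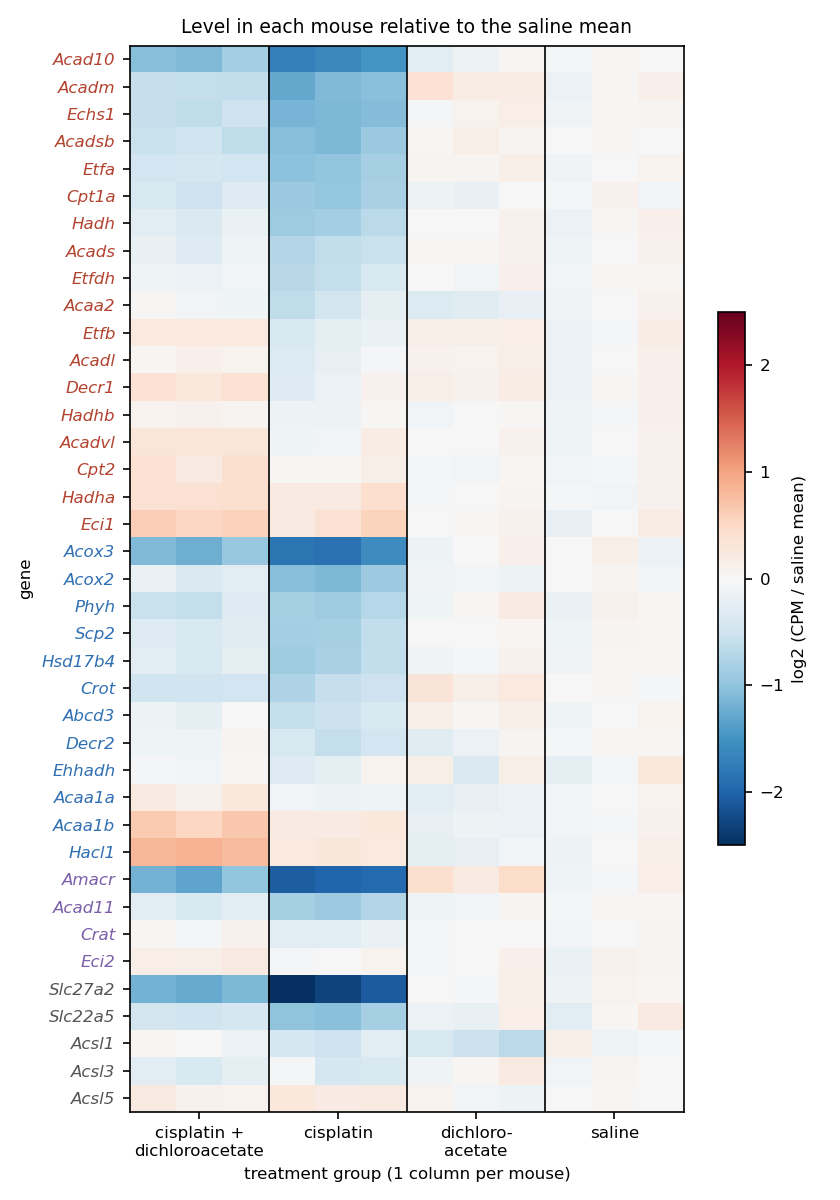
Level of each gene in each mouse as log2 of its CPM over the mean CPM of the 3 saline mice. Rows are the 39 genes, with names in red for mitochondrial, blue for peroxisomal, violet for both compartments and grey for activation and uptake, and columns are the 12 mice in 4 groups. Slc27a2, Amacr, Acox3 and Acad10 are the darkest rows in the cisplatin columns, while Hacl1 and Acaa1b lie above the saline mean in both groups given cisplatin.

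Cisplatin alone lowered most of the pathway at 24 h, in both compartments. Against saline, 26 of the 39 genes fell, 5 rose and 8 did not pass the test. Over all 20370 genes tested, 30.4% fell and 29.7% rose with cisplatin, so 60.1% were called in either direction. The median log2 fold change was -0.51 over the 39 genes and -0.01 over all genes. The cisplatin libraries lay wholly below the saline libraries for 26 genes and wholly above them for 5, which 32.7% and 32.2% of all genes did. Of the mitochondrial genes 11 fell, 2 rose and 5 did not pass, and of the peroxisomal genes 8 fell, 2 rose and 2 did not pass. In whole-kidney RNA, fewer cells of a type and less RNA per cell cannot be told apart. Markers of the proximal tubule moved with the pathway: 12 of 12 fell with cisplatin, with a median log2 fold change of -1.87 and a summed level of 9940 to 12362 CPM in cisplatin mice, against 29731 to 33809 CPM in saline mice. Their part in the result was not tested.

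**Figure D2:**
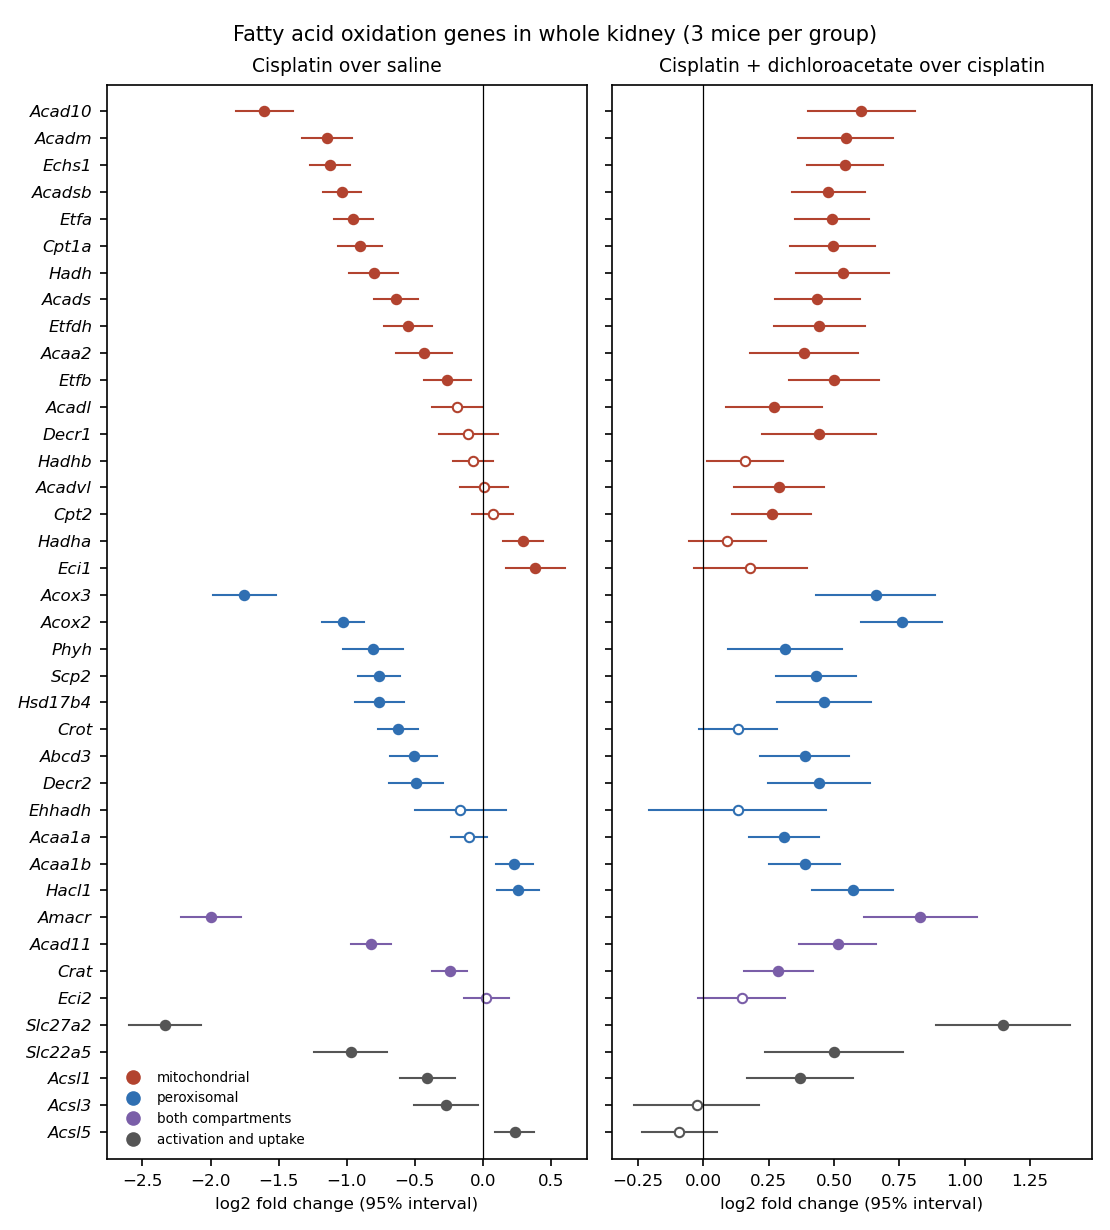
Log2 fold change of each gene with its 95% interval, for cisplatin over saline at left and for the combination over cisplatin at right, on axes of different range. Colours give the compartment, filled points passed the adjusted p threshold of 0.05 and open points did not. At left 26 genes are called below 0 and 5 above it, and at right all 31 called genes lie above 0.

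The supply of substrate held the steepest fall. Slc27a2 (ENSMUSG00000027359, chromosome 2, 126552407 to 126588243) measured 606, 768 and 899 CPM in cisplatin mice, against 3508, 4037 and 3929 CPM in saline mice. The groups were far apart, and the level with cisplatin was 19.8% of that with saline (log2 fold change -2.34, SE 0.12, adjusted p = 1.7e-09). Slc22a5, which imports carnitine into the tubule cell, fell to 155, 152 and 177 CPM in cisplatin mice, against 263, 322 and 367 CPM in saline mice, a log2 fold change of -0.97. It shares 26.2% of its 50-base exon words with other genes, the most with its neighbour Slc22a21, so reads could be split between them. The long-chain synthetases parted: Acsl1 fell (-0.41), Acsl3 fell (-0.27, adjusted p = 0.034) and Acsl5 rose (0.23, adjusted p = 0.0055). The Acsl3 call was lost when cisplatin replicate 2 or 3, saline replicate 2 or 3 or combination replicate 3 was left out (adjusted p 0.058 to 0.15), and with only the groups compared in the fit (0.055).

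The carnitine shuttle was split between its membranes. Cpt1a, the rate-limiting transferase of the outer membrane (ENSMUSG00000024900, chromosome 19, 3322334 to 3385733), measured 215, 211 and 233 CPM in cisplatin mice, against 401, 442 and 391 CPM in saline mice, with no overlap (log2 fold change -0.90, SE 0.07, adjusted p = 1.4e-07). Cpt2, its partner on the inner membrane, measured 155, 153 and 168 CPM in cisplatin mice and 143, 147 and 163 CPM in saline mice. These ranges overlapped, and the Cpt2 log2 fold change was 0.07 with a 95% interval of -0.08 to 0.22.

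In the first oxidation, 7 of 9 acyl-CoA dehydrogenases and oxidases fell, none rose and 2 did not pass, with a median of -1.03. Acadm, the medium-chain dehydrogenase (ENSMUSG00000062908, chromosome 3, 153922357 to 153944632), measured 323, 367 and 384 CPM in cisplatin mice, against 709, 806 and 862 CPM in saline mice (-1.15, SE 0.08, adjusted p = 4.2e-08). The groups did not overlap, and the level was 45.2% of that in saline. Acad10, a dehydrogenase of less well defined substrate, fell further, to 51.9, 55.5 and 60.2 CPM in cisplatin mice, against 163, 175 and 171 CPM in saline mice (-1.60, SE 0.09, adjusted p = 5.9e-09). However, it shares 17.3% of its exon words with other genes, the most with Acad12. The short-chain enzyme Acads (-0.64), the short branched-chain enzyme Acadsb (-1.04) and Acad11 (-0.82), which acts on 4-hydroxy acids, fell as well. Acadvl, the very-long-chain dehydrogenase of the inner membrane, measured 307, 317 and 376 CPM in cisplatin mice and 308, 329.7 and 358 CPM in saline mice, with a log2 fold change of 0.01 (95% interval -0.17 to 0.18). Genes on the opposite strand cover 42.8% of the Acadvl exons, and no strand setting is stated, so its reads cannot be told from theirs. Acadl, the long-chain dehydrogenase, had a log2 fold change of -0.19 that did not pass (adjusted p = 0.056), but did with upper-quartile scaling (0.035) or without cisplatin replicate 3 (0.0073) or saline replicate 1 (0.014).

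The peroxisomal oxidases were among the larger falls. Acox3, the oxidase of pristanic acid and other branched chains (ENSMUSG00000029098, chromosome 5, 35583040 to 35615352), measured 93.4, 91.0 and 111 CPM in cisplatin mice, against 331, 366 and 298 CPM in saline mice (-1.75, SE 0.10, adjusted p = 7.0e-09). Acox2, known for oxidation of bile acid intermediates, measured 93.8, 91.0 and 106 CPM in cisplatin mice, against 198, 206 and 188 CPM in saline mice (-1.03, SE 0.07, adjusted p = 2.3e-08). Amacr, the racemase that prepares branched chains for these oxidases (ENSMUSG00000022244, chromosome 15, 10981756 to 10996626), fell to 89.0, 93.6 and 96.7 CPM in cisplatin mice, against 342, 357 and 415 CPM in saline mice. That was 25.1% of the saline level (-1.99, SE 0.10, adjusted p = 1.4e-09), the largest fall after Slc27a2. The steps before and beside the branched-chain oxidases gave mixed values. Phyh fell (-0.81), whereas Hacl1, the lyase of the next step of alpha-oxidation, measured 48.9, 50.3 and 49.0 CPM in cisplatin mice, against 37.6, 40.9 and 45.7 CPM in saline mice. Hacl1 therefore rose without overlap (0.26, SE 0.07, adjusted p = 0.0051), and it shares 30.1% of its exon words with other genes, the most with the predicted gene Gm49387.

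Hydration, the second oxidation and thiolysis held both directions. The mitochondrial trifunctional protein carries these steps for long chains, and its subunit genes Hadha and Hadhb lie head to head on chromosome 5. Hadha measured 219.9, 221 and 252 CPM in cisplatin mice, against 181, 179.7 and 203 CPM in saline mice, a rise with no overlap (0.30, SE 0.06, adjusted p = 0.0013). Hadhb measured 217, 218 and 242 CPM in cisplatin mice and 221, 234 and 258 CPM in saline mice, ranges that overlapped, with a log2 fold change of -0.07 (95% interval -0.22 to 0.07). Hadhb shares 19.7% of its exon words with other genes, the most with the predicted gene Gm13910. The neighbours thus gave different calls although their RefSeq start sites, at 30154980 for Hadha and 30155253 for Hadhb (GRCm38.p6), have only 272 bases between them. The promoter windows of both, from 250 bases before to 50 after each start, are shown to give this shared stretch. Hadha lies on the minus strand at chr5:30154931-30155230 and Hadhb on the plus strand at chr5:30155003-30155302, each read 5′ to 3′ on its own strand. Capitals mark the 228 bases that both windows hold, read from opposite strands.
Hadha: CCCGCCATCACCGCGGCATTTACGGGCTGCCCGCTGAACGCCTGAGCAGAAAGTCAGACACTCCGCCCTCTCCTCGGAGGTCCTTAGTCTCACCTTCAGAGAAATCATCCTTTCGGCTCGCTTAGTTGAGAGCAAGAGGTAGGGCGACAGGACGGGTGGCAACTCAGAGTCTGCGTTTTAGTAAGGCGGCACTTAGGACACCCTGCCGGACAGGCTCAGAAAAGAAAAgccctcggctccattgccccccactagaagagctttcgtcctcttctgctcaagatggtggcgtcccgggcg
Hadhb: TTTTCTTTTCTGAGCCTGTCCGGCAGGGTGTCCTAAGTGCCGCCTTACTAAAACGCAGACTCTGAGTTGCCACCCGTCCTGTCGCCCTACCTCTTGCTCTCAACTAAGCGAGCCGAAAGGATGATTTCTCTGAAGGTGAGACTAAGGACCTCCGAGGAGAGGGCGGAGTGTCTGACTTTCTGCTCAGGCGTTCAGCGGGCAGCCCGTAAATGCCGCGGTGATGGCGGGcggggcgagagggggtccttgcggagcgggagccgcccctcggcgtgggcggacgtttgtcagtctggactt
The ratio of Hadha to Hadhb counts was 1.01, 1.01 and 1.04 in cisplatin mice, against 0.823, 0.769 and 0.788 in saline mice (exact 2-sided permutation p = 0.10, the smallest that 3 against 3 allows). This pair is 1 of 6 chosen after their values had been seen.

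Echs1, the enoyl-CoA hydratase of short chains (ENSMUSG00000025465, chromosome 7, 140105710 to 140116476), measured 110.1, 113 and 115 CPM in cisplatin mice, against 232, 249.7 and 257 CPM in saline mice, a fall with no overlap (-1.13, SE 0.06, adjusted p = 6.2e-09). Hadh, the dehydrogenase of medium and short chains, fell by 0.80 on the log2 scale, and Acaa2, the mitochondrial thiolase, fell by 0.43. In peroxisomes the pair of bifunctional enzymes parted. Hsd17b4, which takes branched chains, measured 119, 125 and 144 CPM in cisplatin mice, against 205, 224 and 228 CPM in saline mice (-0.76). Ehhadh, which takes straight chains, measured 488, 519.6 and 651 CPM in cisplatin mice and 522, 603 and 735 CPM in saline mice. Ehhadh libraries overlapped, and no comparison of the study called it (cisplatin against saline -0.17, 95% interval -0.50 to 0.17). Among peroxisomal thiolases Scp2 fell (-0.76), Acaa1a had -0.10 and did not pass (adjusted p = 0.13), and Acaa1b rose (0.23, adjusted p = 0.0041). Acaa1b measured 327, 322 and 339 CPM in cisplatin mice, against 268, 273 and 302 CPM in saline mice. Acaa1a and Acaa1b are near copies, sharing 17.1% and 39.6% of their exon words with other genes and most with each other, so the division of reads between them is uncertain. Scp2 shares 29.7% of its words with other genes, the most with the pseudogene Scp2-ps2.

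Electrons from the mitochondrial dehydrogenases pass through electron transfer flavoprotein and its oxidoreductase to ubiquinone, and all 3 genes of this route fell. Etfa measured 168, 172 and 192 CPM in cisplatin mice, against 320.3, 344 and 365 CPM in saline mice (-0.95, SE 0.06, adjusted p = 2.2e-08). Etfb, the other subunit, fell less, at 248, 277 and 286 CPM in cisplatin mice and 290.1, 318 and 366 CPM in saline mice (-0.26, SE 0.07, adjusted p = 0.0081). The Etfb call was lost without cisplatin replicate 1 (log2 fold change -0.18, adjusted p = 0.066). Etfb shares 44.8% of its words with other genes, the most with the predicted gene Gm45233. Etfdh, the oxidoreductase, fell by 0.55. Auxiliary enzymes, which process the double bonds of unsaturated chains, gave a rise for mitochondrial Eci1 (0.38, SE 0.09, adjusted p = 0.0031), a fall for peroxisomal Decr2 (-0.49) and no call for Decr1 (-0.11) or Eci2 (0.03). Without cisplatin replicate 3, Decr1 was called lower (-0.23, adjusted p = 0.027). Transferases that export shortened chains as carnitine esters fell, Crot by 0.62 and Crat by 0.25, as did Abcd3, the importer of long chains into the peroxisome, by 0.51.

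**Figure D3:**
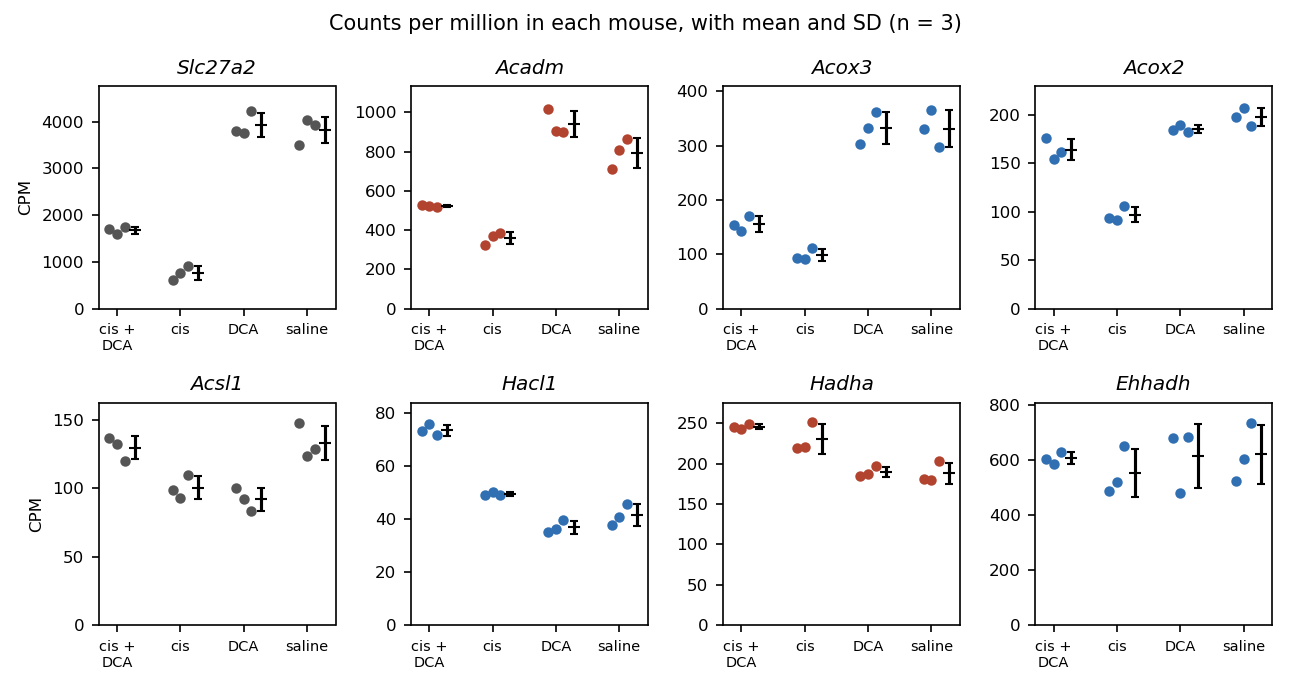
CPM of 8 genes in each mouse, in 4 groups (cis, cisplatin; DCA, dichloroacetate), with the mean and SD of 3 mice at the right of each group and axes from 0. Slc27a2, Acadm, Acox3 and Acox2 are lowest in cisplatin mice, Hacl1 and Hadha are higher in both groups given cisplatin than in saline mice, Acsl1 is low in cisplatin and in dichloroacetate mice, and the groups of Ehhadh overlap.

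Set side by side, both compartments were lower in every cisplatin mouse than in any saline mouse. The median over the mitochondrial genes relative to the saline mean was -0.67, -0.52 and -0.30 (log2) in the cisplatin mice, against -0.10, 0.01 and 0.11 in the saline mice. The median over the peroxisomal genes was -0.69, -0.59 and -0.50 in the cisplatin mice, against -0.08, 0.03 and 0.06 in the saline mice. Within these 6 mice the medians of the compartments differed by at most 0.20, a value that depends on the placing of 7 genes. As a share of scaled counts, mitochondrial genes made up 0.316% to 0.371% in cisplatin mice, against 0.455% to 0.525% in saline mice, and peroxisomal genes 0.263% to 0.305% in cisplatin mice, against 0.379% to 0.424% in saline mice. The median fold change was -0.49 over the mitochondrial and -0.57 over the peroxisomal genes, and it was -0.69 for peroxisomes when 7 of the other genes were each placed in 1 compartment, with Eci2, Amacr, Acad11 and Slc27a2 counted as peroxisomal and Crat, Acsl1 and Acsl5 as mitochondrial. Combination mice had medians of -0.04, -0.10 and -0.08 over mitochondrial and -0.14, -0.30 and -0.13 over peroxisomal genes. The mitochondrial median was higher than the peroxisomal one by 0.042 to 0.20 in combination mice, by 0.019 to 0.20 in cisplatin mice and by 0.019 to 0.11 in dichloroacetate mice, while saline mice ran from -0.020 to 0.055. With the 7 genes placed as above, the same difference was 0.18 to 0.33 in combination mice, 0.24 to 0.37 in cisplatin mice, -0.018 to 0.10 in dichloroacetate mice and -0.021 to 0.048 in saline mice. Under that placing, chosen for this difference after seeing the data, the mice given cisplatin lay above the mice without it, whereas without the 7 genes the ranges overlapped. Because the genes are a chosen set, this difference carries no test.

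**Figure D4:**
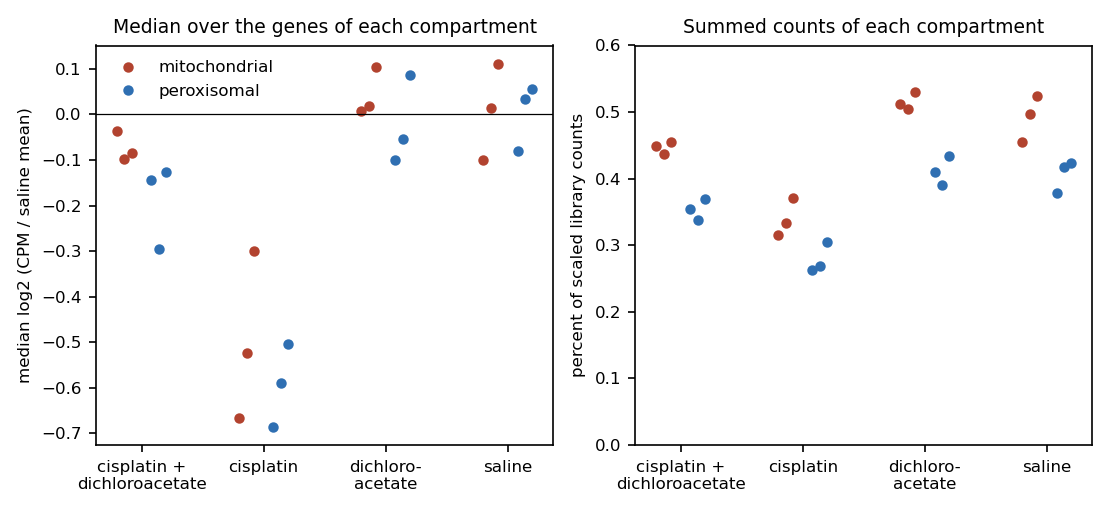
Left, median over the 18 mitochondrial (red) and the 12 peroxisomal genes (blue) of log2 CPM relative to the saline mean, with 1 point per mouse. Right, summed counts of the same genes as percent of the scaled library. In both panels the 3 cisplatin mice lie below every other mouse in each colour, and on the summed counts the combination mice lie between the cisplatin mice and the saline mice.

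Dichloroacetate alone left the pathway near its saline level. Acsl1 was the only gene of the 39 called and it fell, while 0.309% of all genes were called (0.182% lower). The median log2 fold change was 0.01 over the 39 genes, and none of the 12 proximal tubule markers was called. Acsl1, which activates long chains, measured 100.1, 91.9 and 83.5 CPM in dichloroacetate mice, against 147, 124 and 129 CPM in saline mice. Those groups did not overlap (-0.54, SE 0.09, adjusted p = 0.028). The call was lost without combination replicate 1, cisplatin replicate 2, dichloroacetate replicate 2 or 3, or saline replicate 1 (adjusted p 0.053 to 0.082) and with only these groups in the fit (adjusted p = 0.16). Amacr measured 491, 431 and 512 CPM in dichloroacetate mice, against 342, 357 and 415 CPM in saline mice, without overlap, and its log2 fold change of 0.37 did not pass (adjusted p = 0.13). Crot (0.24, adjusted p = 0.15), Acadm (0.25, adjusted p = 0.22) and Acaa2 (-0.28, adjusted p = 0.22) also had groups that did not overlap and did not pass. In all, 3 of the 39 genes lay wholly above and 4 wholly below saline, as did 7.64% and 8.37% of all genes, shares near those of the 39.

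With dichloroacetate given before and with cisplatin, most of the pathway stood higher than with cisplatin alone. Of the 39 genes 31 rose, none fell and 8 did not pass, while over all genes 18.1% rose and 13.5% fell, 31.6% in either direction. The median was 0.44 over the 39 genes, 0.44 over the mitochondrial and 0.41 over the peroxisomal genes, and 0.01 over all genes. Combination libraries lay wholly above cisplatin libraries for 34 genes and wholly below for none, against 25.2% above and 21.6% below over all genes. Proximal tubule markers moved in the same direction, with 12 of 12 higher, a median of 0.85 and a summed level of 14536 to 17393 CPM in combination mice, against 9940 to 12362 CPM in cisplatin mice. Their part in the rise of the pathway was not tested. Adipocyte markers, which the fat around the kidney could bring, summed to at most 8.00 CPM in any library.

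Slc27a2 had the largest difference here too, at 1693, 1597 and 1745 CPM in combination mice, against 606, 768 and 899 CPM in cisplatin mice (1.15, SE 0.11, adjusted p = 1.1e-05). Amacr measured 163, 148 and 186 CPM in combination mice, against 89.0, 93.6 and 96.7 CPM in cisplatin mice (0.83, SE 0.09, adjusted p = 3.3e-05). For Acox2 the values were 176, 155 and 161 CPM in combination mice, against 93.8, 91.0 and 106 CPM in cisplatin mice (0.76, SE 0.07, adjusted p = 6.0e-06). All 3 had groups that did not overlap. All 9 enzymes of the first oxidation rose, with a median of 0.51, from Acadl at 0.27 (adjusted p = 0.020) to Acox2. The electron transfer genes rose together, Etfa by 0.49, Etfb by 0.50 and Etfdh by 0.44. Both carnitine palmitoyltransferases rose, Cpt1a at 313, 288 and 328 CPM in combination mice, against 215, 211 and 233 CPM in cisplatin mice (0.50), and Cpt2 by 0.26. Among the thiolases Acaa2 (0.39), Acaa1a (0.31), Acaa1b (0.39) and Scp2 (0.43) rose. Acadvl (0.29) and Decr1 (0.44), which had no call for cisplatin over saline with all libraries, rose as well. For Decr1 that outcome rested on cisplatin replicate 3, without which it was called lower than saline (adjusted p = 0.027).

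Hacl1 rose with cisplatin and stood higher still with the combination, at 73.0, 75.7 and 71.5 CPM in combination mice, against 48.9, 50.3 and 49.0 CPM in cisplatin mice (0.57, SE 0.07, adjusted p = 4.2e-05). The genes that did not pass against cisplatin were Hadha (0.09), Hadhb (0.16), Eci1 (0.18), Eci2 (0.15), Ehhadh (0.13), Crot (0.13), Acsl3 (-0.03) and Acsl5 (-0.09). For Hadha the 95% interval was -0.06 to 0.24 and for Crot -0.02 to 0.28. Hadhb did pass without cisplatin replicate 3 or saline replicate 1 or 3 (adjusted p 0.026 to 0.048), and Eci1 without cisplatin replicate 3 (0.048). Calls of 4 genes were lost when 1 library was left out. Without combination replicate 3, Cpt2 (adjusted p = 0.059), Acadl (0.066) and Phyh (0.14) were lost, and without combination replicate 2 Acadl (0.063). Without cisplatin replicate 1, Cpt2 (0.055), Acadvl (0.072), Acadl (0.14) and Phyh (0.095) were lost, and without cisplatin replicate 2 Acadl (0.065) and Phyh (0.090).

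The combination was not level with saline across the pathway. Of the 39 genes 19 fell, 9 rose and 11 did not pass, against 19.6% lower, 20.6% higher and 40.2% called in either direction over all genes, and the median was -0.12. Of the proximal tubule markers 11 of 12 were lower than in saline, and their part was not tested. Slc27a2 stood at 43.9% of saline (-1.19), Amacr at 44.6% (-1.16) and Acox3 at 46.9% (-1.09). Acad10 measured 81.4, 79.1 and 94.5 CPM in combination mice, against 163, 175 and 171 CPM in saline mice, a fall without overlap (adjusted p = 1.4e-06). Acadm measured 527, 523 and 516 CPM in combination mice, against 709, 806 and 862 CPM in saline mice, a fall without overlap (-0.60, SE 0.08, adjusted p = 5.0e-05). Above saline were Hacl1 (0.83), Acaa1b (0.62), Eci1 (0.56), Hadha (0.39), Decr1 (0.34), Cpt2 (0.33), Acadvl (0.30), Etfb (0.24) and Acaa1a (0.20). Acaa1b measured 445, 402 and 446 CPM in combination mice, against 268, 273 and 302 CPM in saline mice (adjusted p = 2.8e-06). Several of these calls were lost when 1 library was left out. Among the rises, Etfb was lost without combination replicate 1 or 3 or saline replicate 1 or 2 (adjusted p 0.056 to 0.087), Acaa1a without combination replicate 1 or 3 (0.051 and 0.068) and Decr1 without saline replicate 1 (0.052). Among the falls, Acads (-0.20) was lost without combination replicate 1 or 2 or saline replicate 2 or 3 (0.071 to 0.16) and with only the groups compared (0.069), Acsl3 (-0.30) without any 1 of the combination replicates or saline replicate 2 or 3 (0.052 to 0.11) and Hadh (-0.27) without combination replicate 2 or saline replicate 3 (0.056 and 0.063).

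Against dichloroacetate alone, 20 genes fell, 9 rose and 10 did not pass, with 19.2% lower, 21.5% higher and 40.7% called in either direction over all genes. Amacr had the largest fall at 163, 148 and 186 CPM in combination mice, against 491, 431 and 512 CPM in dichloroacetate mice (-1.53, SE 0.09, adjusted p = 4.5e-08). Slc27a2 (-1.23), Acox3 (-1.10), Acad10 (-0.88), Acadm (-0.85), Crot (-0.73), Echs1 (-0.66) and Acadsb (-0.64) followed, and Hacl1 (0.99) and Acaa1b (0.78) led the rises. Acsl1 measured 137, 132 and 120.0 CPM in combination mice, against 100.1, 91.9 and 83.5 CPM in dichloroacetate mice, and so rose without overlap (0.50, SE 0.09, adjusted p = 0.00054). Smaller calls were lost without 1 library: Abcd3 (-0.23) without combination replicate 1 or 2 or dichloroacetate replicate 1 or 3 (adjusted p 0.064 to 0.11), Acox2 (-0.18) without combination replicate 2 or 3, any 1 of the dichloroacetate replicates or saline replicate 2 (0.051 to 0.17) and with no filter (0.066), and Acsl3 (-0.35) without combination replicate 2 (0.057) or dichloroacetate replicate 3 (0.060). Acads (-0.25) was lost without combination replicate 2 (adjusted p = 0.062), Acadvl (0.26) without dichloroacetate replicate 2 (0.053) and Slc22a5 (-0.41) without dichloroacetate replicate 3 (0.057). Acsl5 (0.17, adjusted p = 0.043) was lost without any 1 library other than saline replicates 1 and 3 and dichloroacetate replicate 1 (0.050 to 0.18), and also with RLE or upper-quartile scaling, DESeq2, no filter or only the groups compared (0.058 to 0.091). This comparison shares the combination mice with the ones above. Of the proximal tubule markers 10 of 12 were lower and 0 higher than in dichloroacetate mice (median -0.81), and their part was not tested.

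The design allows a test of whether the response to cisplatin differed with dichloroacetate, as the interaction of both drugs. It is the log2 fold change of the combination over dichloroacetate minus that of cisplatin over saline. For 24 of the 39 genes it was called and positive, for none negative, and 15 did not pass, whereas 18.6% of all genes were called, 11.4% positive and 7.15% negative. The median was 0.40 over the 39 genes, 0.37 over the mitochondrial genes (10 of 18 called), 0.49 over the peroxisomal genes (8 of 12 called) and 0.03 over all genes. The largest values belonged to Slc27a2 at 1.11 (SE 0.16, adjusted p = 0.00046), Acsl1 at 0.91 (SE 0.12, adjusted p = 0.00040), Acox2 at 0.85 (SE 0.09, adjusted p = 9.9e-05), Hacl1 at 0.74 (SE 0.10, adjusted p = 0.00026) and Acad10 at 0.72 (SE 0.12, adjusted p = 0.0017). Acsl1 fell by 0.41 with cisplatin over saline and had 0.50 for the combination over dichloroacetate. Acadm had an interaction of 0.30 that did not pass (adjusted p = 0.082), but did without saline replicate 1 (0.022) or cisplatin replicate 3 (0.046). It stood at 1016, 904 and 901 CPM in dichloroacetate mice. Crot had -0.11 (95% interval -0.32 to 0.10). Of the proximal tubule markers 11 of 12 were called positive and 0 negative in this interaction, with a median of 1.04. Their part in the interaction of the pathway genes was not tested.

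Counts of genes that work as partners changed unequally, which a ratio of counts within each mouse shows free of library scaling. These 6 pairs were chosen after their values had been seen, each with the gene of the higher log2 fold change for cisplatin over saline as numerator. That the ratios share a direction with cisplatin follows from this choice. The smallest exact permutation p for 3 against 3 mice is 0.10. Etfb to Etfa was 1.559, 1.503 and 1.547 in combination mice, 1.476, 1.611 and 1.494 in cisplatin mice and 0.906, 0.923 and 1.00 in saline mice. The ratio stood apart from saline in cisplatin mice (exact 2-sided permutation p = 0.10) and overlapped between combination and cisplatin mice (p = 0.80). Acadvl to Acadm averaged 0.780 ± 0.012 in combination mice, 0.931 ± 0.061 in cisplatin mice, 0.364 ± 0.033 in dichloroacetate mice and 0.419 ± 0.013 in saline mice (SD, n = 3 each). Cpt2 to Cpt1a averaged 0.614 ± 0.0098 in combination mice, 0.722 ± 0.0036 in cisplatin mice, 0.388 ± 0.011 in dichloroacetate mice and 0.369 ± 0.043 in saline mice. For both, the ratio was higher in cisplatin than in saline mice and lower in combination than in cisplatin mice, with no overlap (exact 2-sided permutation p = 0.10 each). The limits given above for single genes hold for these ratios. Acadvl reads cannot be told from those of genes on the opposite strand, and Etfb shares 44.8% of its exon words with other genes. The near copies Acaa1a and Acaa1b share most with each other.

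**Figure D5:**
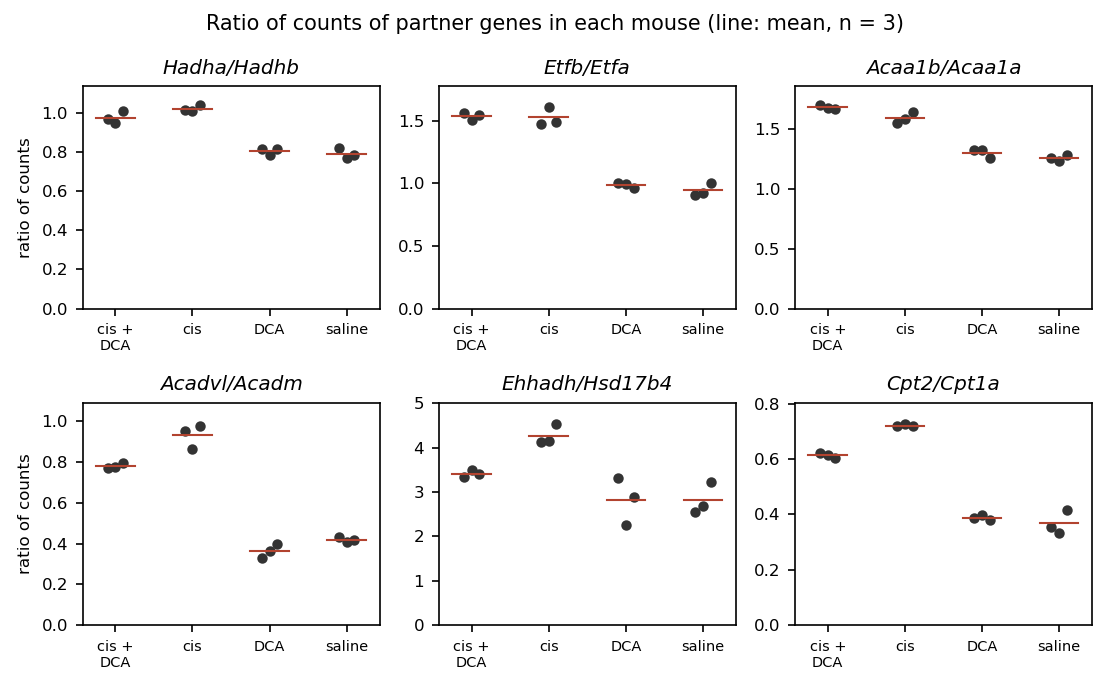
Ratio of counts of 6 partner gene pairs in each mouse, in 4 groups (cis, cisplatin; DCA, dichloroacetate), with the group mean as a line and axes from 0. All 6 ratios are higher in the cisplatin mice than in the saline mice, a direction set by the choice of numerator. Etfb/Etfa overlaps between combination and cisplatin mice. Counts of Acadvl, Etfb, Hadhb, Acaa1a and Acaa1b are uncertain, because their exons overlap or share sequence with other genes.

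Further genes of the pathway were counted from lists, whose choice was made with earlier results of these data known. Their counts are to be read against the 30.4% of all genes that fell and the 29.7% that rose with cisplatin over saline, and the 18.1% that rose and 13.5% that fell in the combination over cisplatin. Of 13 regulators, 10 fell, 1 rose and 2 did not pass with cisplatin over saline, and 9 rose, none fell and 4 did not pass in the combination over cisplatin. Ppara, the nuclear receptor that switches on fatty acid oxidation, measured 22.8, 19.1 and 24.5 CPM in cisplatin mice, against 41.0, 49.2 and 31.4 CPM in saline mice (-0.87, SE 0.14, adjusted p = 0.00013), and 47.6, 40.3 and 49.3 CPM in combination mice (1.04 over cisplatin, adjusted p = 0.00013). The receptors Esrrg (-1.98), Hnf4a (-1.06), Rxra (-0.46) and Esrra (-0.25), the coactivators Ppargc1a (-0.80) and Ppargc1b (-1.02), the corepressor Ncor1 (-0.27) and the mitochondrial deacylases Sirt3 (-1.28) and Sirt5 (-0.41) fell with cisplatin, Ppard rose (0.50), and Lpin1 (0.13) and Nrip1 (0.13) did not pass. In the combination over cisplatin, Esrrg (1.05), Hnf4a (0.82), Ppargc1a (0.55), Sirt3 (0.51), Sirt5 (0.42), Ncor1 (0.36), Rxra (0.28) and Esrra (0.24) rose. Ppargc1b had 0.38, Lpin1 0.24, Nrip1 -0.06 and Ppard -0.10, none of which passed. These receptors moved beside the proximal tubule markers, of which 12 of 12 were lower with cisplatin over saline and 12 of 12 higher in the combination over cisplatin, and the part of the tubule in their change was not tested.

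The list of malonyl-CoA and AMPK control, which sets the activity of Cpt1a, gave 5 falls and 4 rises of 9 with cisplatin, with acetyl-CoA carboxylase Acaca at -2.03 and the AMPK subunits Prkag2 lower (adjusted p = 9.5e-09) and Prkab2 higher at 0.70. In the combination over cisplatin 5 rose and 3 fell. Of 17 other mitochondrial acyl-CoA enzymes 11 fell, 3 rose and 3 did not pass with cisplatin, led by the medium-chain synthetases Acsm3 (-2.00) and Acsm2 (-1.76) and the thioesterase Acot2 (1.66), and 11 rose and 1 fell in the combination over cisplatin. With dichloroacetate alone over saline, 2 of them were called higher, as were 0.128% of all genes. They were Acsm3 (0.89, adjusted p = 0.0054) and the thioesterase Acot9 (0.48, adjusted p = 0.033), named after their values were seen. Genes of these lists were not refitted under other settings. Of 13 tested genes of fatty acid uptake, binding and carnitine supply (of 15 listed) 9 fell, 2 rose and 2 did not pass, led by Bbox1 (-2.14), the last enzyme of carnitine synthesis, the carrier Slc22a4 (-1.32) and the fatty acid receptor Cd36 (-1.27), and 9 rose in the combination over cisplatin.

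On the peroxisomal side, 11 other fatty acid enzymes gave 4 falls, 2 rises and 5 without a call, shares near or under those over all genes, led by the reductase Pecr (-1.47), the CoA diphosphatase Nudt19 (-1.46) and the bile acid conjugating enzyme Baat (0.93). Of 16 peroxisomal enzymes outside beta-oxidation 14 fell and none rose, with a median of -0.69, led by the membrane proteins Mpv17l (-1.83) and Pxmp2 (-1.68) and the ether lipid enzyme Agps (-1.34). Of 16 peroxisome biogenesis genes 10 fell and 1 rose, with a median of -0.27, among them the import docking protein Pex14 (-1.07) and the import receptor Pex7 (-0.64). In the combination over cisplatin 5, 12 and 6 genes of these 3 lists rose and none fell. With dichloroacetate alone over saline, Nudt19 (0.65, adjusted p = 0.041) and Agps (0.54, adjusted p = 0.037) were called higher, as were 0.128% of all genes. Both were named in this comparison after their values were seen, and neither was refitted under other settings.

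Other cell markers give the setting of these values. With cisplatin over saline, 8 of 9 markers of the loop of Henle and distal tubule fell and 1 rose (median -1.13), 7 of 9 of the collecting duct, 4 of 6 of podocytes, 4 of 6 of endothelium, 3 of 6 of fibroblasts and smooth muscle and 2 of 6 of macrophages fell, and none of these rose. Over all genes 30.4% fell, close to the share of the macrophage list. In the combination over cisplatin, 2 of the loop of Henle and distal tubule rose and 1 fell, 5 of the collecting duct rose, and none of the podocyte, endothelium, fibroblast and macrophage lists passed. Adipocyte markers summed to 1.11 to 8.00 CPM in combination mice, 2.58 to 5.77 CPM in cisplatin mice, 0.0995 to 4.64 CPM in dichloroacetate mice and 0.598 to 0.710 CPM in saline mice. The dichloroacetate range overlapped all others. Of 5 tested, 2 rose with cisplatin over saline and none was called with dichloroacetate over saline. Markers of liver, another tissue rich in this pathway, summed to 49.0 to 59.5 CPM in cisplatin mice and 69.0 to 107 CPM in saline mice, and of 5 tested 3 fell and 2 rose. The part of these cell types in the results was not tested.

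Beyond the compartment, the genes were compared by position and promoter. Their spans had a median of 31.3 kb, 27.6 kb for the mitochondrial and 31.8 kb for the peroxisomal genes. Across the 39 genes Spearman's rho between span and the log2 fold change of cisplatin over saline was -0.17, a description across genes of the same 6 libraries. It was -0.34 within the mitochondrial and -0.37 within the peroxisomal genes. In the 12 genes up to 20 kb the median fold change was -0.25, against 0.10 in 11229 genes of all kinds of that span. It was -0.71 in 16 genes of 20 to 40 kb, against 0.00 in 3395 genes, and -0.12 in 6 genes of 40 to 60 kb, against -0.08 in 1603 genes. In the 5 genes above 60 kb it was -0.76, against -0.41 in 3597 genes. RefSeq promoter windows (GRCm38.p6, 250 bases before to 50 after the start) were given for 34 of the 39 genes. The PPAR response element, AGGTCA given again after 1 free base and sought on both strands, was in none of them and in 0.0396% of 32851 windows of all genes. The looser form with AGGNCA in both places, which includes it (0.381% of windows), and the ERR element TCAAGGTCA (0.423%) were also in none, the HNF4 element CAAAGTCCA (0.475%) was in that of Abcd3, and the NRF1 element, GCGCA followed directly by TGCGC and equal to its reverse complement (0.971%), was in those of Acad10 and Etfdh. Letters other than the strict PPAR element were chosen after the expression values were known. A match is no evidence of binding, and no match says only that these letters are not in this window. The Acad10 and Etfdh windows are shown because they alone hold the element of NRF1, a factor known for genes of mitochondrial function. Acad10 lies on the minus strand at chr5:121660461-121660760 and Etfdh on the minus strand at chr3:79628718-79629017, with the element in capitals, starting 8 and 128 bases before the start site.
Acad10: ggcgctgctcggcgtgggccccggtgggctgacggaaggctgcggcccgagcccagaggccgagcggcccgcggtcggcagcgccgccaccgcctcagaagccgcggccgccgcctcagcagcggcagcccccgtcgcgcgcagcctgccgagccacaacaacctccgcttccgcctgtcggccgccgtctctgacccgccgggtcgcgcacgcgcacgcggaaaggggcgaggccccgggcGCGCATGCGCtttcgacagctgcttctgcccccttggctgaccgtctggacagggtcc
Etfdh: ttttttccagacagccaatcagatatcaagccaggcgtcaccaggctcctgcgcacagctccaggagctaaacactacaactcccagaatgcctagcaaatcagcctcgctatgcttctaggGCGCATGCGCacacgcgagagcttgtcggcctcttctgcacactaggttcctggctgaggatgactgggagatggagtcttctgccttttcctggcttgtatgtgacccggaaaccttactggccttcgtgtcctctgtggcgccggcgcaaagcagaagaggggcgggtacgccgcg
Both genes fell with cisplatin over saline and rose in the combination over cisplatin, with log2 fold changes of -1.60 and 0.60 for Acad10 and of -0.55 and 0.44 for Etfdh. This was not particular to them, since 26 of the 39 genes fell in the first comparison and 31 rose in the second. The part of the element was not tested.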

How the data were processed

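RNA of 12 kidneys was sequenced from TruSeq libraries, per the labels' protocols. The authors deposited raw counts of reads per Ensembl gene, 1 column per library, and a table of normalised values that was not used here. The submitters' processing notes name Trimmomatic, TopHat, Cufflinks, HTSeq, bedtools, DESeq and mm10, without roles, versions or a strand setting. From those counts, symbols were assigned through GENCODE M21 (27955 of 28991 genes matched). Genes were filtered with filterByExpr, scaled with TMM and fitted with edgeR 4.0.16 (limma 3.58.1, R 4.3.3) as a quasi-likelihood model with a mean per group over all 12 libraries (8 residual degrees of freedom, common biological coefficient of variation 0.0917). Adjusted p-values are Benjamini-Hochberg values over 20370 genes, called below 0.05, and a standard error is the log2 fold change over the root of F. Replicate libraries differed by 4.64 to 28.2 times the variance that sampling alone gives, so each was counted. Alternatives were RLE and upper-quartile scaling, DESeq2 1.42.0, no filter, the replicate number as a block, a fit of only the groups compared, each library left out and another placing of 7 genes by compartment.

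All 39 genes are named, as are the regulators and, of each further list, up to 3 called genes with the largest change for cisplatin over saline, of which 1 is not reported here. Members and lists were chosen with earlier results of these data known. Exon sharing is the percent of 50-base words of a gene's exons also present in those of any other gene, and the gene named shares the most. Promoter windows come from RefSeq (GRCm38.p6). A planned look at the ends of the proteins was not made, and proteins are not analysed here.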

Additional observations from a re-analysis of the deposited data

Results flagged for a closer look

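The response to cisplatin differed with and without dichloroacetate for 24 genes, by the interaction test of edgeR's quasi-likelihood fit with Benjamini-Hochberg adjustment. Each value below is the log2 fold change of the combination over dichloroacetate minus that of cisplatin over saline, and all 24 were positive. The largest belonged to Slc27a2 (1.11), Acsl1 (0.91), Acox2 (0.85), Hacl1 (0.74) and Acad10 (0.72). Acaa2 (0.67), Acox3 (0.66), Cpt1a (0.59), Decr2 (0.57), Slc22a5 (0.57), Acaa1b (0.55), Acad11 (0.55), Acaa1a (0.52) and Hadh (0.50) followed. The smaller values were those of Echs1 (0.47), Hsd17b4 (0.47), Amacr (0.46), Etfdh (0.42), Scp2 (0.42), Etfa (0.40), Acads (0.39), Acadsb (0.39), Etfb (0.35) and Crat (0.30).

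For 6 of these genes the fitted responses had opposite signs. Acsl1 had 0.50 with dichloroacetate and -0.41 without it, Acaa1a 0.41 and -0.10, Acaa2 0.24 and -0.43, Etfb 0.09 and -0.26, Decr2 0.08 and -0.49, and Crat 0.05 and -0.25. In the main fit only Acsl1 and Acaa1a passed the test with dichloroacetate. Acaa2 passed it with only the groups compared (adjusted p = 0.0076), the replicate block (0.029) or no filter (0.046). It also passed without cisplatin replicate 1 or 3, dichloroacetate replicate 3 or saline replicate 3 (0.015 to 0.049). Acaa1b and Hacl1 were called higher in both responses, and the remaining 16 were negative in both.

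Calls of 5 genes in this test were lost without 1 library. Etfb was lost without any 1 of them except saline replicate 1 and cisplatin replicate 3 (adjusted p 0.053 to 0.13), and with RLE scaling (0.051). Slc22a5 was lost without cisplatin replicate 1 or 2, combination replicate 1 or 3, dichloroacetate replicate 1 or 2 or saline replicate 2 or 3 (0.055 to 0.080). Amacr was lost without cisplatin replicate 1 or 2, combination replicate 3, dichloroacetate replicate 2 or saline replicate 3 (0.051 to 0.087). Crat was lost without cisplatin replicate 1 or 2, combination replicate 1 or 3 or dichloroacetate replicate 1 (0.052 to 0.080), and Acads without cisplatin replicate 1 (0.066) or combination replicate 3 (0.059).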

How the results depend on the processing

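Over 18 other settings, 17 for the interaction, no called gene changed direction. Of 702 refits of single genes per comparison, 690 gave the same outcome as the main fit, called or not called, for cisplatin over saline. That number was 693 for dichloroacetate over saline, 687 for the combination over cisplatin, 661 over dichloroacetate and 681 over saline. For the interaction it was 618 of 663. Genes called in neither fit count as the same. For dichloroacetate over saline, 6 refits lost the only call, that of Acsl1. A call was gained in some setting by 2 genes for each of cisplatin over saline, dichloroacetate over saline and the combination over cisplatin. It was gained by 3 for the combination over dichloroacetate (Acaa2, Decr1 and Eci2), 1 over saline and 5 for the interaction. Leaving out each library gave 30 to 32 genes called for cisplatin over saline (31 with all), 27 to 33 for the combination over cisplatin (31), 24 to 30 over dichloroacetate (29), 24 to 28 over saline (28) and 19 to 29 for the interaction (24). For dichloroacetate over saline, 1 gene was called, and 0 to 1 without 1 library, 0 with only those groups, 3 with DESeq2 (Acsl1, Crot and Amacr) and 2 with the replicate block; the cause was not tested. Over all genes that comparison had 63 calls, 15 with only those groups, 336 with DESeq2, 119 without the filter, 117 with the block and 15 to 126 without 1 library. With 7 shared or uptake genes each placed in 1 compartment, the peroxisomal median was -0.69 for cisplatin over saline (-0.57 otherwise) and -0.29 for the combination over saline (-0.20), and the mitochondrial median was 0.053 for the combination over dichloroacetate (-0.07), from the change of members. The mean over mice of the mitochondrial minus the peroxisomal median was then 0.26 in combination mice (0.12 otherwise) and 0.32 in cisplatin mice (0.096), an alternative chosen after seeing the data. The labels state no pairing of mice by replicate number. Same-numbered libraries correlated at -0.095 to 0.15, above 0.1 in 4 of 18 pairs. Libraries of different numbers were not compared, so these values do not decide whether the numbers pair mice. The block gave 32 calls for cisplatin over saline, 32 for the combination over cisplatin, 29 over dichloroacetate, 29 over saline and 27 for the interaction. With it, Acox2 was not called for the combination over dichloroacetate (adjusted p = 0.056) and Acadl was called for cisplatin over saline (0.018). Low-count genes such as Acsl3 and Decr2 have the widest counting error.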
